A study of Caenorhabditis elegans with 2 samples.

Results

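Chromatin binding by the C2H2 zinc finger protein M03D4.4 was examined at 10 Caenorhabditis elegans genes for maternal RNA-binding proteins of the early embryo. The genes were mex-1, mex-3, mex-5, mex-6, spn-4, pos-1, pie-1, cgh-1, oma-1 and gld-1, taken by name from a fixed list, out of 19973 protein-coding genes on the 6 nuclear chromosomes. The data are chromatin immunoprecipitation and sequencing (ChIP-seq) peaks from whole mixed-stage embryos of mixed sex, collected 2 h after egg bleaching, as 1 condition in 2 biological replicates. All embryos came from strain OP696, genotype unc-119(tm4063) III; wgIs696, in which an integrated transgene adds M03D4.4 fused at its C-terminal end to a GFP-FLAG tag. The antibody was directed against GFP, although the antibody field of the labels names M03D4.4 itself. Both replicates are the same transgenic line, and no untagged line or other tagged protein was analysed here, so binding by M03D4.4 cannot be told apart from chromatin that is recovered whichever protein carries the tag.

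Oocytes and early embryos of C. elegans are largely silent in transcription and rely on maternal mRNAs, whose translation and decay are set by RNA-binding proteins loaded by the mother. MEX-1, MEX-5, MEX-6, POS-1, PIE-1 and OMA-1 are CCCH zinc finger proteins, MEX-3 and GLD-1 bind RNA through KH domains, SPN-4 has an RNA recognition motif and CGH-1 is a DEAD-box RNA helicase. Several of these proteins help to place germline and somatic determinants along the anterior-posterior axis. Their genes are transcribed mainly in the maternal germline, which is not part of the embryos sampled.

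The sequences below are shown because they carry the result at each kind of member. They are the 201 bases centred on the summits of the peaks upstream of mex-1, spn-4 and cgh-1, which passed the authors' reproducibility threshold, and of the strongest pooled weak peak at mex-5. For mex-6, the closest relative of mex-5 in this set, where no summit was listed, the stretch at the same distance from the 5' end is given. All were read from the RefSeq WBcel235 genome (ce11) 5' to 3' in the direction of the member's transcription, and capitals mark the 11 bases centred on the summit (for mex-6, on the matching position).
mex-1, chrII:11967612-11967812, plus strand: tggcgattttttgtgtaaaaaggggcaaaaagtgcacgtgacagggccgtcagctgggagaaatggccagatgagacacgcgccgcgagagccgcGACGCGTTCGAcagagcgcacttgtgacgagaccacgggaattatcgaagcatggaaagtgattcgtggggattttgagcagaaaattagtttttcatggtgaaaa
spn-4, chrV:6785234-6785434, minus strand: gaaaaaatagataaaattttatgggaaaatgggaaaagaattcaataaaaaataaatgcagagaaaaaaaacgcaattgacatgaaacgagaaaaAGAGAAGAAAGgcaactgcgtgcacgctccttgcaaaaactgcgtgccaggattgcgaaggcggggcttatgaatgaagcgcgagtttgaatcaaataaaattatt
cgh-1, chrIII:7498466-7498666, minus strand: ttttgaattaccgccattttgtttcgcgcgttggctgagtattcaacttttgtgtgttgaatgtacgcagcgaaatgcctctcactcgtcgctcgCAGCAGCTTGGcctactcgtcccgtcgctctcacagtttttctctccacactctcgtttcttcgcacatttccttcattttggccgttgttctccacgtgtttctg
mex-5, chrIV:13353454-13353654, plus strand: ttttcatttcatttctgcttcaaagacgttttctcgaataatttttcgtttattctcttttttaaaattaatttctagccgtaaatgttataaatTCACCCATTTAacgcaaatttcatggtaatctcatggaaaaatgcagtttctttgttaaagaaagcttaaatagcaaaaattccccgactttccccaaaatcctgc
mex-6, chrII:9523905-9524105, plus strand: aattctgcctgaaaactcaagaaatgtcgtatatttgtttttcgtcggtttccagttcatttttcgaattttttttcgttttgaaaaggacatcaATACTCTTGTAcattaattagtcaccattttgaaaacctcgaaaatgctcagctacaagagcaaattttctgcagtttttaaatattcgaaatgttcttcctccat

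These stretches differed in base composition. The share of G and C was 50.7% at mex-1, 48.8% at cgh-1 and 35.8% at spn-4, where the median over all 1423 nuclear peaks past the threshold was 47.3% (quartiles 42.3 and 52.2%). It was 29.9% at the weak mex-5 summit and 31.8% at the matching stretch of mex-6. The CG dinucleotide occurred 17 times at mex-1, 16 times at cgh-1 and 9 times at spn-4, against a median of 11 over all peaks (quartiles 9 and 14), and 6 and 7 times in the mex-5 and mex-6 stretches. The spn-4 stretch held the 10 bases aactgcgtgc at 2 places, starting 8 and 32 bases past the summit. The cgh-1 stretch held the 8 bases cgtcgctc at 2 places, starting 14 bases before and 17 bases past the summit. Repeats of this length were not limited to the peaks past the threshold, since the mex-5 stretch held the 9 bases tttcatttc and the mex-6 stretch the 9 bases ttttgaaaa at 2 places each.

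The 5 words of 7 bases that most exceeded the flanks, counted on either strand within 50 bp of all nuclear summits, were CTCTCTC (11% of peaks and 2.95% of flanks 200 to 300 bp away), AGAGAGA (11.7 and 3.97%), ACACACA (10.9 and 3.3%), CACACAC (10.3 and 2.81%) and GGTTCGA (7.52 and 0.738%). CTCTCTC and AGAGAGA (on the other strand TCTCTCT) overlap in a CT repeat, and ACACACA and CACACAC overlap in a CA repeat. At least 1 of the 5 words lay at 1 of the 3 members' peaks and at 32.4% of all peaks. The match was in cgh-1, where TGTGTGT, the reverse complement of ACACACA, lay 50 to 44 bases before the summit. ACACACA was found at 8.68% of the 714 summits in promoter windows, and GGTTCGA at 4.34%. Among the 1082 peaks with no small RNA gene within 500 bp of the summit, GGTTCGA was not in the top 5 words. No match says only that these letters are not in the window.

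Of the 10 genes, 3 had a summit past the irreproducible discovery rate (IDR) threshold in the promoter window (30%), where 4.69% of all protein-coding genes did. The window reached 1000 bp upstream and 500 bp downstream of the gene's annotated 5' end. The 3 genes were mex-1, spn-4 and cgh-1, which are 1 of the 6 CCCH genes, the gene with an RNA recognition motif and the helicase gene, and neither KH-domain gene had one. The members were chosen with earlier results of these data known, and the counts are given without a test. A single summit can count for several genes, and with each summit given only to the nearest protein-coding 5' end the count was 1 of 10, cgh-1, where 3.45% of all protein-coding genes had one. With a window of 500 bp upstream it was also 1 of 10, but that gene was spn-4, and the share of all genes was 3.63%.

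**Figure D1:**
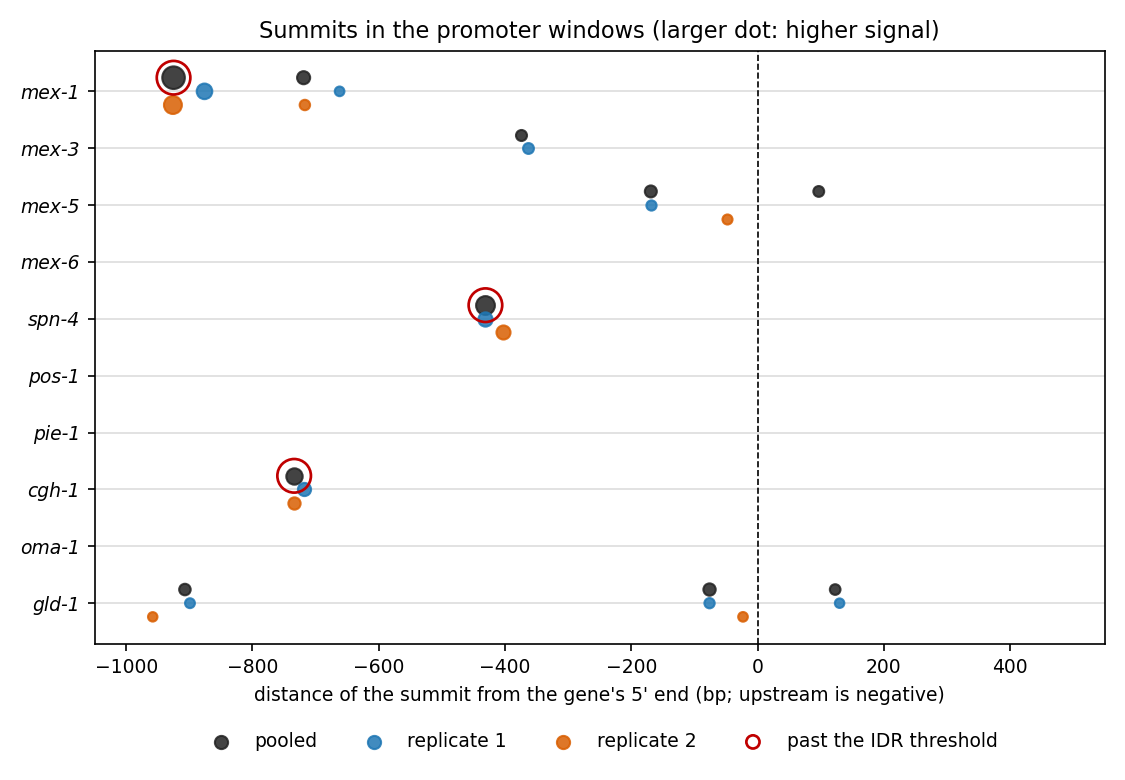
Position of each listed summit relative to the 5' end of the member (x axis, bp, upstream negative), with a row for each gene and a line of dots for each relaxed list: pooled (black), replicate 1 (blue) and replicate 2 (orange). Dot area grows with signal, and red circles mark the summits past the IDR threshold, which lay 925 bp upstream of mex-1, 431 bp upstream of spn-4 and 734 bp upstream of cgh-1.

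The highest signal among the members was upstream of mex-1, whose CCCH zinc finger protein is needed for germline blastomere fate and named for the extra muscle of its mutants. On ce11, mex-1 (WBGene00003228) lies on chromosome II from 11968637 to 11972330 on the plus strand. Its peak (11967497 to 11967926, summit 11967712, intergenic) had a signal of 317 in the pooled replicates, 132 in replicate 1 and 186 in replicate 2. It ranked 315 of the 1423 nuclear IDR peaks, 531 of 29978 nuclear peaks in replicate 1 and 220 of 29985 in replicate 2. It was stronger than the peak of 76.6% of the 936 genes with a summit in their window. The log2 difference of replicate 2 from replicate 1 was 0.50, against a median of -0.19 over 1418 peaks listed in both (SD 0.46). A weaker summit 719 bp upstream in the pool had a signal of 82.4 and did not pass the threshold. Its peak, from 11967703 to 11968132, overlapped the stronger one. Replicate 2 had 38.9 at 717 bp upstream. Replicate 1 had 28.6 at 662 bp upstream, ranked 23046 of 29978.

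The peak of spn-4, which encodes an RNA recognition motif protein needed for spindle orientation and blastomere fates, was near the middle of the list. The gene (WBGene00004984) lies on chromosome V from 6783187 to 6784903 on the minus strand, and the peak reached from 6785119 to 6785548 with its intergenic summit at 6785334. The signal was 208 in the pool, 105 in replicate 1 and 101 in replicate 2, and the log2 difference between the replicates was -0.06. The peak ranked 695 of 1423 in the IDR list, 833 in replicate 1 and 720 in replicate 2. The replicate summits lay 431 and 403 bp upstream.

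The peak of cgh-1, the gene of a conserved helicase of P granules and of stored maternal mRNA particles, was among the weakest past the threshold. The gene (WBGene00000479) lies on chromosome III from 7495320 to 7497832 on the minus strand, and the peak from 7498351 to 7498780, with its intergenic summit at 7498566. The signal was 149 in the pool, where the lowest nuclear IDR peak had 147, and it was 83.9 in replicate 1 and 67.9 in replicate 2. The peak ranked 1374 of 1423 in the IDR list, 1363 in replicate 1 and 1751 in replicate 2, so it was not among the 1423 strongest nuclear peaks of replicate 2. Of the 936 genes with a summit in their window, 2.35% had a weaker peak.

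**Figure D2:**
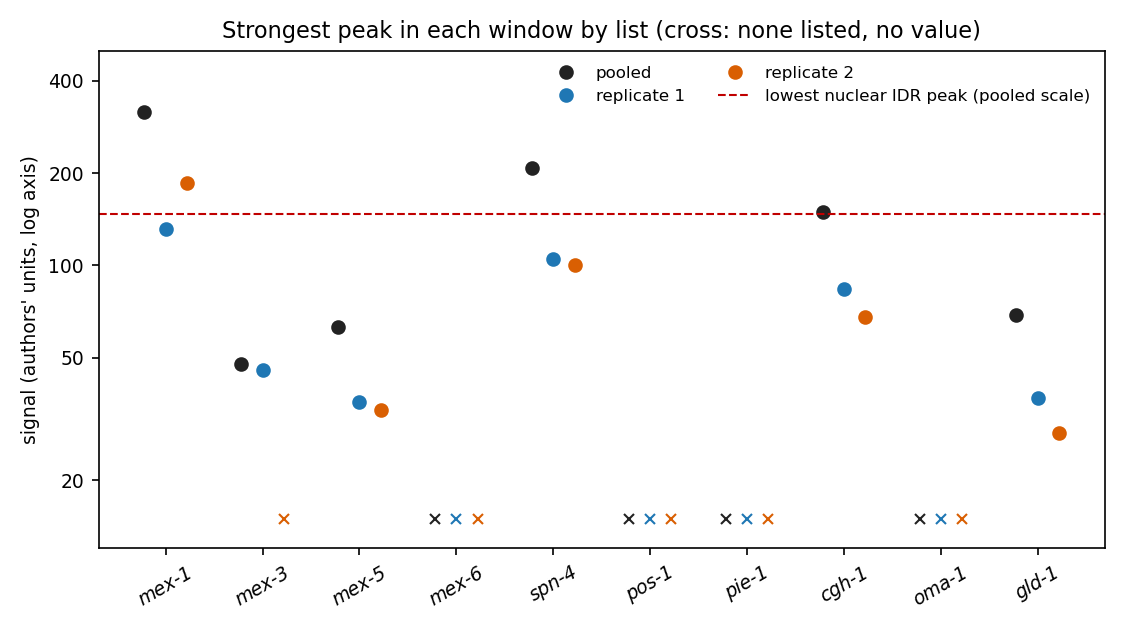
Signal of the strongest peak in the promoter window of each gene (y axis, the authors' units on a log axis) in the pooled list (black), replicate 1 (blue) and replicate 2 (orange); crosses mark genes with no peak listed and carry no value. On the pooled scale mex-1 (317), spn-4 (208) and cgh-1 (149) lie above the lowest nuclear IDR peak at 147 (dashed), and no other member does.

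The 3 summits lay 925, 734 and 431 bp upstream of mex-1, cgh-1 and spn-4, where the median over the 936 genes was 245 bp upstream (quartiles 470 and 132 bp). A distance over 400 bp upstream was seen for 30.2% of those genes. At 2 of the 3 a neighbour on the opposite strand had its 5' end nearer the summit. The mex-1 summit lay 168 bp upstream of W03C9.5 and 781 bp upstream of rab-7, which encodes a late endosome GTPase, and the gap between mex-1 and W03C9.5 was 1092 bp. The spn-4 summit lay 117 bp upstream of spe-39, a vesicle trafficking gene first known from sperm development, across a gap of 547 bp. The cgh-1 summit was in the window of no other gene. It lay 182 bp past the 3' end of C07H6.9, which is read in the same direction. Among the 936 genes, 51.4% shared their strongest summit with another protein-coding gene, and 73.3% were the nearest gene to it. No tRNA, rRNA, snRNA, snoRNA or microRNA gene lay within 500 bp of any of the 3 summits.

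**Figure D3:**
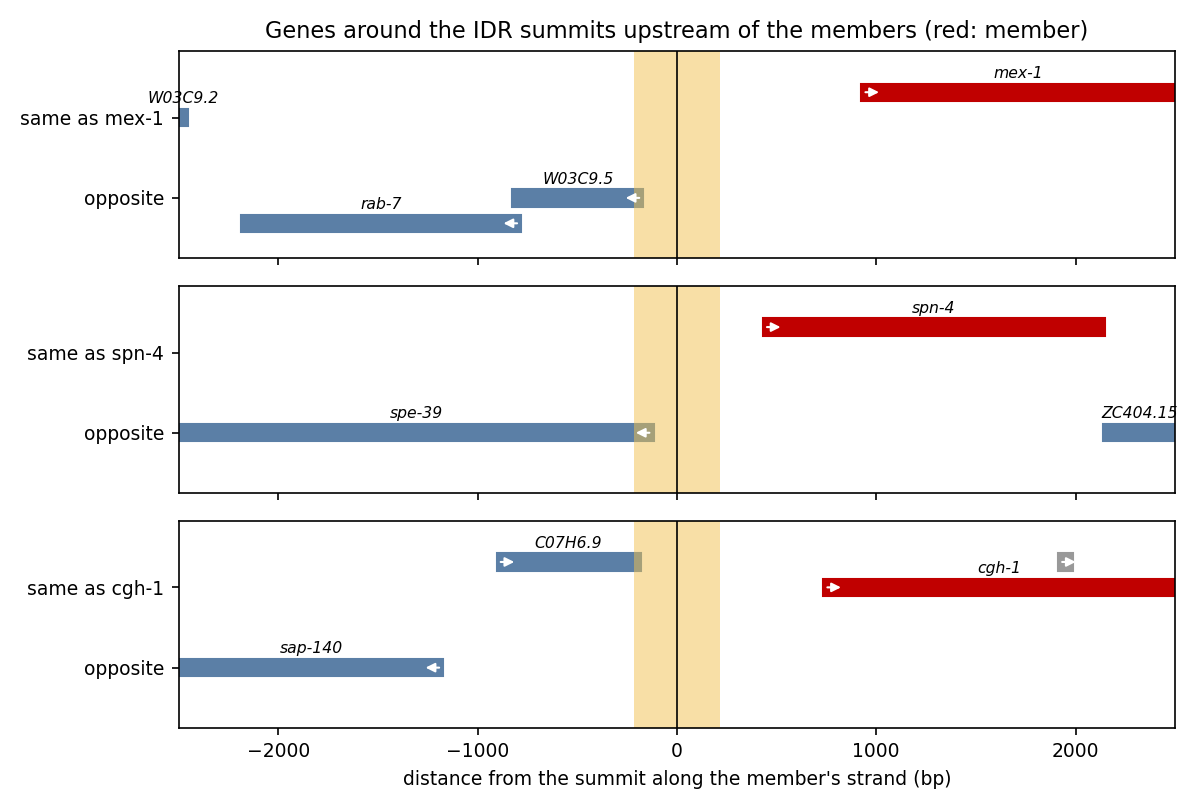
Annotated genes within 2500 bp of the summits at mex-1, spn-4 and cgh-1 (x axis, distance from the summit along the member's strand, bp), with the member in red, other protein-coding genes in blue and a snoRNA gene in grey; arrows mark 5' ends and the yellow band the peak. At mex-1 and spn-4 the 5' end of a gene on the opposite strand lies nearer the summit (168 and 117 bp) than that of the member (925 and 431 bp).

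The peaks of other genes with values most like these were found by log2 signal in the pool and in both replicates. Among the 684 genes compared with mex-1, nduf-11 (324, 133 and 183 in the pool, replicate 1 and replicate 2) and kin-29 (326, 144 and 183) were closest. For spn-4 they were znf-207 (206, 105 and 102) and rpl-7A (212, 107 and 99.2), a ribosomal protein gene. For cgh-1, among 685 genes, they were rab-18 (148, 85.8 and 68.8) and spt-16 (151, 82.4 and 69.1), which encodes a subunit of the FACT histone chaperone. Likeness over 3 values of the same libraries, of which the pool holds both replicates, describes size only.

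The other 7 members had no summit past the threshold in the window. Of these, mex-3, mex-5 and gld-1 had weak summits in the relaxed lists, each of which holds 30000 entries that include background. Counting relaxed peaks, 6 of 10 members had a summit in the pooled list, where 38.3% of all protein-coding genes did. The counts were 6 of 10 in replicate 1 (39% of all genes) and 5 of 10 in replicate 2 (39.5%). The background is high because these lists run down to a signal of 41.1 in the pool, 24.3 in replicate 1 and 22.8 in replicate 2.

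MEX-5 and MEX-6 are closely related CCCH proteins that act together to restrict germline proteins to the posterior. The 2 genes differed in the relaxed lists, in which mex-5 had entries and mex-6 had none. Their upstream neighbours differ as well. The gene mex-5 lies head to head with rec-8 across a gap of 529 bp, so a summit in this gap is also in the promoter window of rec-8. The neighbour of mex-6, AH6.17, is read in the same direction as mex-6. At mex-5 (WBGene00003230, chromosome IV, 13353723 to 13356104, plus strand) the strongest pooled summit lay 169 bp upstream, in the gap shared with rec-8. Its signal was 63.2, near the pooled median of 60.4. Replicate 1 had 35.9 at the same position and replicate 2 had 33.9 at 48 bp upstream. These ranked 13547, 14489 and 13826, near the middle of each list. At mex-6 (WBGene00003231, chromosome II, 9524174 to 9526359, plus strand) the nearest summit was 32812 bp away in the pool, 32808 bp away in replicate 1 and 4827 bp away in replicate 2. A gene with no listed summit may still be bound below the cutoff of the list.

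At gld-1, the KH-domain gene that represses maternal mRNAs during meiosis (WBGene00001595, chromosome I, 7695681 to 7698222, plus strand), the strongest relaxed summit lay 76 bp upstream with a signal of 68.8 in the pool and 37.1 in replicate 1, and 23 bp upstream with 28.5 in replicate 2. At mex-3, the KH-domain gene that represses pal-1 in the anterior (WBGene00003229, chromosome I, 127285 to 134270, plus strand), a summit 374 bp upstream had 47.8 in the pool and a summit 364 bp upstream had 45.8 in replicate 1, and replicate 2 listed none. The pooled mex-3 summit ranked 23723 of 29980. An IDR peak with a signal of 158 lay outside the window, 2459 bp upstream of mex-3 (summit 124826), and mex-3 had the 5' end nearest to it. The gap from mex-3 to the next gene upstream was 6383 bp.

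Beside mex-6, no summit of any relaxed list lay in the window of pos-1, pie-1 or oma-1, so 4 of 10 members had none, against 48.4% of all protein-coding genes. All 4 encode CCCH zinc finger proteins. The windows were set at the outermost 5' end of each gene. A second annotated transcript 5' end of pie-1, at 12428713, was given no window in the relaxed lists. POS-1 specifies posterior blastomeres, PIE-1 keeps transcription silent in the germline blastomeres, and OMA-1 acts in oocyte maturation. The genes are pos-1 (WBGene00004078, chromosome V, 8414086 to 8415254), pie-1 (WBGene00004027, chromosome III, 12426893 to 12429195) and oma-1 (WBGene00003864, chromosome IV, 8888976 to 8890999), each on the plus strand. The nearest IDR summit lay 64944 bp from pos-1, 38240 bp from oma-1 and 42078 bp from mex-6. The nearest to pie-1, with a signal of 153, lay 687 bp past its 3' end and 253 bp upstream of snr-6, a spliceosomal Sm protein gene. The median distance from the 5' end to the nearest IDR summit was 9955 bp over the 10 members and 30862 bp over all protein-coding genes. The members' median includes the 3 genes with a summit in the window. No member lay near it, as it falls between pie-1 (2989 bp) and gld-1 (16921 bp).

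Weak summits lay near the 3' ends of several members. Within 500 bp of the annotated 3' end the pooled list had a summit at 6 of 10 members, where 26.9% of all protein-coding genes had one, and the IDR list had one at none of the 10 members and at 279 of all 19973 genes. The 6 were mex-1, spn-4, pos-1, pie-1, cgh-1 and oma-1. Replicate 1 also had 6, with mex-3 in place of spn-4, where 27.6% of all genes had one. Replicate 2 had 7, the pooled 6 and gld-1, where 26.9% of all genes did. The pooled summits past the 3' ends of mex-1 and spn-4 lay in introns of the neighbours acbp-6 and ZC404.15. The window around the 3' end was chosen after the values were seen. In pos-1 the summit lay in the 3' UTR, 245 to 250 bp before the end of the gene, with a signal of 108 in the pool, 62.8 in replicate 1 and 40.9 in replicate 2. In pie-1 a summit in the 3' UTR had 75.6 in the pool and 54.8 in replicate 2, and replicate 1 listed a summit in the coding exon with 34.9. Each of these pie-1 summits also lay less than 500 bp downstream of the second annotated transcript 5' end of pie-1. A summit 155 bp past the 3' end of cgh-1, in an exon of the noncoding RNA gene C07H6.15, had 109, 61.3 and 36.7 in the pool, replicate 1 and replicate 2. Downstream of oma-1 the values were 79.6, 43.8 and 35.9, at 310 to 378 bp past the end. None of these pooled values reached the lowest nuclear IDR signal of 147.

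Related genes were taken from 5 lists: other maternal RNA regulators, P granule and germ granule proteins, mRNA decapping and deadenylation, polarity and protein turnover partners, and mRNAs under translational control in the germline or early embryo. A few genes stand in more than 1 list. Of their 81 different genes found in the annotation, 7 had a summit past the threshold in the window (8.64%), against 4.69% of all protein-coding genes. With a window of 500 bp upstream it was 2 (atx-2 and ntl-2), or 2.47%, against 3.63% of all genes, and with the nearest 5' end alone it was 3 (these and cey-1), or 3.7%, against 3.45%. The share of related genes was thus below that of all genes in the first setting and near it in the second. In the pooled relaxed list it was 42 of 81 (51.9%), against 38.3%. By list, the share with a relaxed pooled summit was highest for decapping and deadenylation genes, at 78.6% (11 of 14). It was 45.8% for other maternal RNA regulators and 50% for P granule and germ granule genes. For polarity and turnover genes it was 47.4%, and for mRNAs under translational control 38.5%. The share of all protein-coding genes was 38.3%.

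Among other maternal RNA regulators, 3 of 24 (12.5%) had an IDR peak, against 4.69% of all protein-coding genes. The strongest was at atx-2, the ataxin-2 gene, with its summit 64 bp upstream and a signal of 1155 in the pool, 621 in replicate 1 and 537 in replicate 2, in the window of ecps-1 as well. The peak of larp-1, a La-related protein gene, had 411 in the pool, 234 in replicate 1 and 175 in replicate 2, at 684 bp upstream and nearer to wip-1. The peak of cey-1, a cold-shock domain protein gene, had 192, 81.4 and 104 at 696 bp upstream. Neither oma-2, the partner of oma-1, nor any of the puf, fbf and nos genes listed had an IDR summit in the window. Of all protein-coding genes 4.69% had one, so absence was the common case.

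Against 4.69% of all protein-coding genes, 1 of 14 P granule and germ granule genes (7.14%) had an IDR peak, ifet-1. It encodes an eIF4E-binding translational repressor that works with CGH-1, and its summit (427 in the pool, 218 in replicate 1 and 209 in replicate 2) lay 515 bp upstream and nearer to rps-1, a ribosomal protein gene. Of 14 decapping and deadenylation genes 2 had a peak (14.3%). They were ntl-2, a CCR4-NOT subunit gene (413, 206 and 207, at 461 bp upstream and shared with no gene), and lsm-3 (347, 214 and 132, at 965 bp upstream and nearer to Y62E10A.23). Of 19 polarity and turnover genes 1 had a peak (5.26%). It was at par-2, a posterior cortical RING protein gene (148, 85.8 and 68.8, at 659 bp upstream, the summit given above for rab-18, which is nearer). None of the 13 genes whose mRNAs are under translational control, among them glp-1, pal-1, apx-1 and skn-1, had a summit past the threshold. Over all protein-coding genes 4.69% had one. In the pooled relaxed list 5 of the 13 had a summit (38.5%), near the 38.3% of all protein-coding genes.

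**Figure D4:**
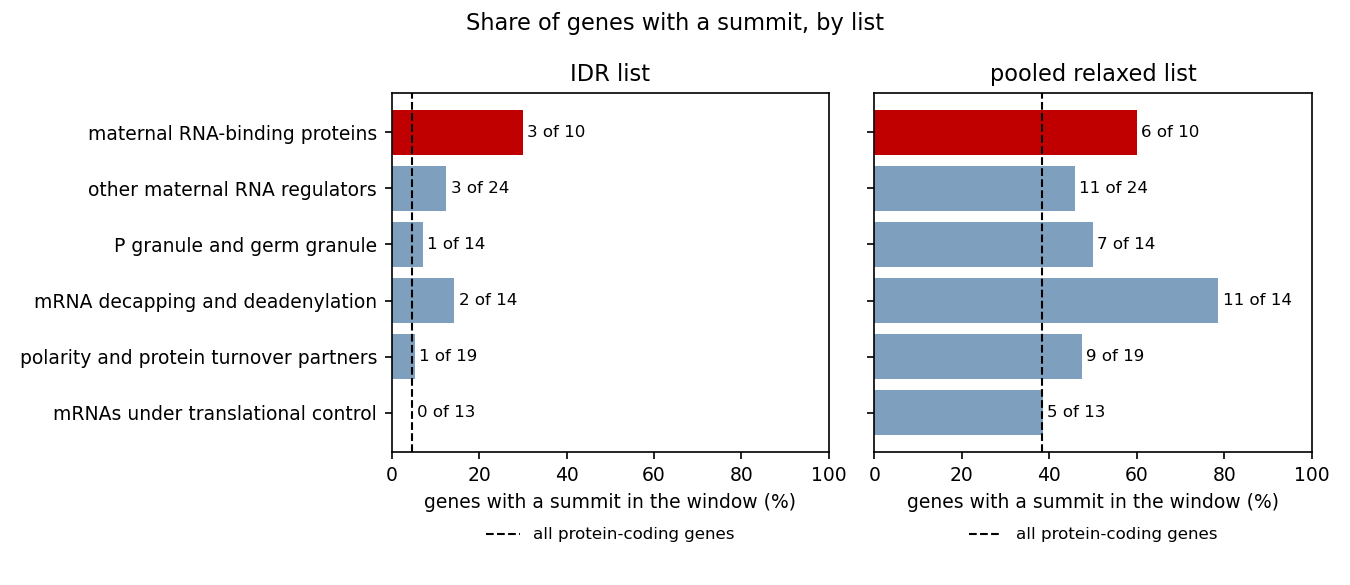
Share of genes with a summit in the promoter window (x axis, %) in the IDR list (left) and the pooled relaxed list (right) for the maternal RNA-binding protein genes (red) and the 5 related lists (blue), with counts beside the bars and the share of all protein-coding genes dashed (4.69% left, 38.3% right). In the IDR list the bars run from 3 of 10 for the maternal RNA-binding protein genes to 0 of 13 for mRNAs under translational control.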

How the data were processed

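Peaks came from ChIP-seq of embryos in 2 biological replicates, numbered as in the sample descriptions. Per the file headers deposited with the samples, a relaxed list of peaks and background was made for each replicate and for the pool against a control, and the IDR list was derived from these 3 lists. Peak signal is used as the authors deposited it; its scaling is not given in the sources used here, nor are the aligner, the peak caller and the IDR threshold. The deposited −log10 q-value was used only to break ties in rank. The summit is the deposited distance from the peak start. The files hold no read counts, so depth is unknown and no interval is given. Peaks are not replicates, and the replicates are set side by side with no test.

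Only the ce11 lists were used, with Ensembl release 115 on WBcel235. A member's IDR peak was matched in another list where the overlap covered at least 50% of either peak, taking the nearest summit. Gene lists and members were chosen with earlier results of these data known. Named were all 10 members, genes sharing their summits, the 2 genes most alike to each, and related genes with an IDR peak; others were named after their values were seen. Of the listed names ntl-1 was not matched in the annotation. The window step was tested on simulated summits. The match step was run only on simulated peaks against their own list, which does not test matching between lists. Python 3.11.15, NumPy 2.4.6, pandas 2.3.3 and Matplotlib 3.10.9 were used.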

Additional observations from a re-analysis of the deposited data

How the results depend on the processing

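Of 45 alternative values, 38 stayed within 1.5 times the reported count or share, or within the spread of the replicates for ranks. Several of these had little room to move. The strongest pooled peaks gave the same ranks and counts as the IDR list, and 1418 of the 1423 nuclear IDR peaks were listed in both replicates. A fall from 3 members to 2 counted as within 1.5 times. The count of 3 members with an IDR peak was 1 with a window of 500 bp upstream (spn-4) and 1 with the nearest 5' end only (cgh-1), where the share of all genes was 3.63 and 3.45%. Without replicate 1, taking the 1423 strongest relaxed nuclear peaks of replicate 2, it was 2 (4.45% of all genes). Without replicate 2, taking those of replicate 1, it was 3 (4.56%). These peaks of a single replicate passed no IDR threshold. The count of 7 related genes (8.64%) was 2 (2.47%) and 3 (3.7%) in the first 2 of these settings, below or near the share of all genes, and 6 (7.41%) without replicate 1 and without replicate 2. The share of all protein-coding genes, 4.69%, was 2.59% with the stronger 711 IDR peaks, which leave out cgh-1. In the relaxed lists of the single replicates, the mex-1 peak ranked from 220 to 531 (315 in the pool), the spn-4 peak from 720 to 833 and the cgh-1 peak from 1363 to 1751. The spread that these ranks were read against comes from the same 2 replicate ranks. Words of 6 bases, and words from peaks away from small RNA genes (an alternative added after seeing the data), also gave 1 of 3 members' peaks, where any of the words lay at 50.6% of all peaks and at 36% of the peaks away from small RNA genes. The fixed length of the relaxed lists limits what their absences show.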

Other observations

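Weak summits were also listed inside the introns of the longest members. How often other genes of such length hold one was not counted. Distances are from the outermost 5' end of the gene. Both genes also have internal annotated transcript 5' ends, for mex-3 as far as 132262 and for mex-1 at 11970376. The relaxed lists were not searched around these internal ends. In mex-3 a summit in an intron, 1238 bp past the 5' end in the pool, had a signal of 86.2, with 37.3 at 1240 bp in replicate 1 and 46.5 at 1185 bp in replicate 2. Replicate 1 had a stronger mex-3 intron summit, 47.4 at 3334 bp, with no counterpart there in the pool or replicate 2. The promoter window of mex-3 held 47.8 in the pool, 45.8 in replicate 1 and no entry in replicate 2. In mex-1 an intron summit 2658 bp past the 5' end had 60.2 in the pool, with 25.5 at 2607 bp in replicate 1 and 32.4 at 2661 bp in replicate 2. The pool and replicate 2 listed a further mex-1 intron summit, with 50.1 at 2365 bp and 42.5 at 2343 bp. None was past the IDR threshold.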
